A study of Homo sapiens with 9 samples.

Results

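Keratins and keratin-associated genes were followed in ES-2 cells, an established line derived from an ovarian carcinoma. The 9 genes KRT7, KRT8, KRT18, KRT19, KRT34, KRT80, KRT81, KRTAP2.3 and KRTAP1.5 were taken by their symbols from the 58174 genes of the deposited tables, which write the hyphens of KRTAP2-3 and KRTAP1-5 as dots. They were selected on earlier results of these same libraries, among them the opposite movement of KRTAP2.3 in the 2 knockdowns. Their differences between conditions are therefore given as a description, with intervals and without p-values.

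Cells received a control siRNA (siC), an siRNA pool against IGF2BP1 (siIGF2BP1, siImp1 in the labels) or an siRNA pool against SRF (siSRF), with 3 libraries each, and total RNA depleted of ribosomal RNA was sequenced 72 h later. IGF2BP1 is an RNA-binding protein that protects many mRNAs from decay, and SRF is a transcription factor that binds the CArG box and drives many genes of the actin cytoskeleton. The study sought transcripts under the control of both factors. Nothing in the labels says whether the 3 libraries of a group came from separate cultures, so every spread and p-value here measures only the difference between these libraries, which may be technical. All cells were of 1 line, and the knockdowns were transient and partial. In RNA from whole cultures, fewer cells that express a gene and less RNA per cell cannot be told apart. Levels are given as FPKM, reads scaled by gene length and library size. Differences are on the log2(FPKM + 0.1) scale, and a gene was called where the limma fit over all genes gave an adjusted p of at most 0.01.

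Keratins are the intermediate filament proteins of epithelial cells. A filament is built from pairs of an acidic type I keratin and a basic type II keratin, and KRT8 with KRT18 and KRT7 with KRT19 are the usual partners of simple epithelia such as the lining of glands and ducts. KRT80 is a type II keratin of many epithelia. KRT81, KRT86 and KRT83 are type II and KRT34 a type I keratin of the hair shaft, where keratin-associated proteins (KRTAP) cross-link the filaments. In the genome most type I keratin genes lie with a part of the KRTAP genes in a cluster on chromosome 17, whereas the type II genes and KRT18 lie on chromosome 12.

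The 5 genes KRT80 (chr12:52168996-52192014, minus strand), KRT7 (chr12:52232520-52252186, plus strand), KRT81 (chr12:52285913-52291534, minus strand), KRT8 (chr12:52897187-52949954, minus strand) and KRT18 (chr12:52948871-52952906, plus strand) belong to the chromosome 12 cluster on GRCh38. KRTAP1.5 (chr17:41026026-41027208), KRTAP2.3 (chr17:41059240-41060114), KRT34 (chr17:41377669-41382306) and KRT19 (chr17:41523617-41528308) lie on the minus strand of chromosome 17. KRTAP2.4 (chr17:41065116-41065879), which is not among the 9 genes, is the neighbour of KRTAP2.3. KRTAP2.3 and KRTAP2.4 are single-exon genes, and 39.5% of the 50-base words of the KRTAP2.3 transcript also occur in KRTAP2.4.

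The stretches upstream of the annotated start sites are shown for KRTAP2.3 and KRTAP2.4, neighbours whose levels had the same order in the 3 conditions, and for KRTAP1.5 and KRT34, which lie in the same cluster and were close to silent. The letters TATAAA were found by search of both strands in the window from 250 bases before to 50 bases after the start, and were present in 11.5% of 35116 such windows in the RefSeq promoter table (GRCh38.p14). The 4 stretches, each of 100 bases on the minus strand, were placed on the TATAAA nearest to the start, which is in capitals.
KRTAP2.3, chr17:41060115-41060214: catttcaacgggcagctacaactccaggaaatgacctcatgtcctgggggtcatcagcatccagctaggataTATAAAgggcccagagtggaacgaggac
KRTAP2.4, chr17:41065910-41066009: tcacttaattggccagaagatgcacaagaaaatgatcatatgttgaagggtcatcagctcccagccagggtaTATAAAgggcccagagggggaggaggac
KRTAP1.5, chr17:41027211-41027310: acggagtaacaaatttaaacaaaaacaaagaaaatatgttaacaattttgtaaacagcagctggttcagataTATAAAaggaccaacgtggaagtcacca
KRT34, chr17:41382310-41382409: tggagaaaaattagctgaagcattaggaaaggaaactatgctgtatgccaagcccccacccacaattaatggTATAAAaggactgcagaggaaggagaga
The first base of TATAAA lay at -28 in KRTAP2.3, at -58 in KRTAP2.4, at -30 in KRTAP1.5 and at -31 in KRT34, counted from the annotated start. Without gaps, KRTAP2.4 equalled KRTAP2.3 at 43 of the last 50 bases and at 17 of the first 50. KRTAP1.5 equalled KRTAP2.3 at 31 of the last 50 bases and KRT34 at 21. The last 50 bases include the 6 of TATAAA, which are equal in every stretch because the stretches were placed on them. Neither a CArG box, CC followed by 6 A or T and GG (1.29% of all windows), nor the AP-1 motif TGANTCA (7.71%) was found in the windows of these 4 genes or of KRT8, which says only that these letters are not there. The KRT8 window, chr12:52926420-52926719, lies well inside the annotated span of the gene. It covers 1 annotated start of a gene with 18 transcripts, and starts elsewhere in KRT8 were not searched. The table had no entry for KRT7, KRT18, KRT19, KRT80 and KRT81.

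Libraries held from 6421764 to 9416175 reads counted on genes. IGF2BP1 fell from 12.8 ± 0.689 FPKM in siC to 4.11 ± 0.0846 FPKM in siIGF2BP1 (mean ± SD, n = 3), and was at 14.2 ± 0.455 FPKM in siSRF. SRF itself had 14.5 ± 1.28 FPKM in the siC libraries, 6.01 ± 0.714 FPKM after IGF2BP1 depletion and 1.47 ± 0.145 FPKM after its own depletion, so it was reduced in both knockdowns but further in siSRF (log2 difference -1.26 and -3.22, adjusted p = 0.00111 and 6.1e-05). Epithelial markers were nearly absent from the line: the 12 markers summed to between 0.877 and 1.23 FPKM in a library, CLDN3 and ESRP1 had no read, and the most abundant was OCLN at 0.521 FPKM in siC. The 7 markers of ovarian carcinoma summed to between 0.131 and 0.537 FPKM, with no read for MSLN, WFDC2 and MUC16 and with PAX8 the most abundant at 0.155 FPKM in siC. The 12 mesenchymal markers summed to between 953.8 and 1293.6 FPKM, most of it from VIM. Leukocyte markers summed to at most 0.334 FPKM, all of it from LYZ.

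KRT81, KRT7, KRT80 and KRT18 carried the keratin mRNA of these cells, and 3 of the 9 genes were close to silent. In siC, KRT81 was at 288.1 ± 17.7 FPKM, the 87th of 19799 protein-coding genes, and made up 56.0% of the FPKM of all keratin and KRTAP genes. KRT7 followed with 101.2 ± 4.31 FPKM. KRT80 at 45.1 ± 2.58 FPKM and KRT18 at 43.4 ± 2.08 FPKM came next and overlapped between libraries, as did KRTAP2.3 at 13.2 ± 3.99 FPKM and KRT8 at 8.81 ± 0.342 FPKM. The deposited FPKM divide by the summed exons of all transcripts of a gene, which are 6881 bases for KRT8 and 4093 bases for KRT7 against main transcripts of 1784 and 1625 bases. Divided by the main transcript instead, KRT7 came to 254.9 ± 10.9 and KRT81 to 288.1 ± 17.7, KRT18 was at 98.8 ± 4.75, above KRT80 at 50.6 ± 2.89, and KRT8 was at 34 ± 1.32, in the same unit. The order of levels between these genes therefore depends on the length used, while differences of 1 gene between conditions do not.

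Of the 149 protein-coding keratin and KRTAP genes in the tables, 33 had a read in any library. Among the quiet members, KRT19, the simple-epithelial type I keratin, had 5 reads in siIGF2BP1 library 3 (0.253 FPKM) and none in the other 8 libraries. KRT34 had 1 read, in siC library 3. KRTAP1.5 had 1 read, in siIGF2BP1 library 2. No reads in 3 libraries allow at most 3 reads over the group, which is 0.0623 FPKM for KRT19 in siC, 0.0731 FPKM for KRT34 in siIGF2BP1 and 0.124 FPKM for KRTAP1.5 in siC (counting error only). These 3 genes were below the filter of 0.1 FPKM on average, and no fold is given for them. The other 6 entered every fit.

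**Figure D1:**
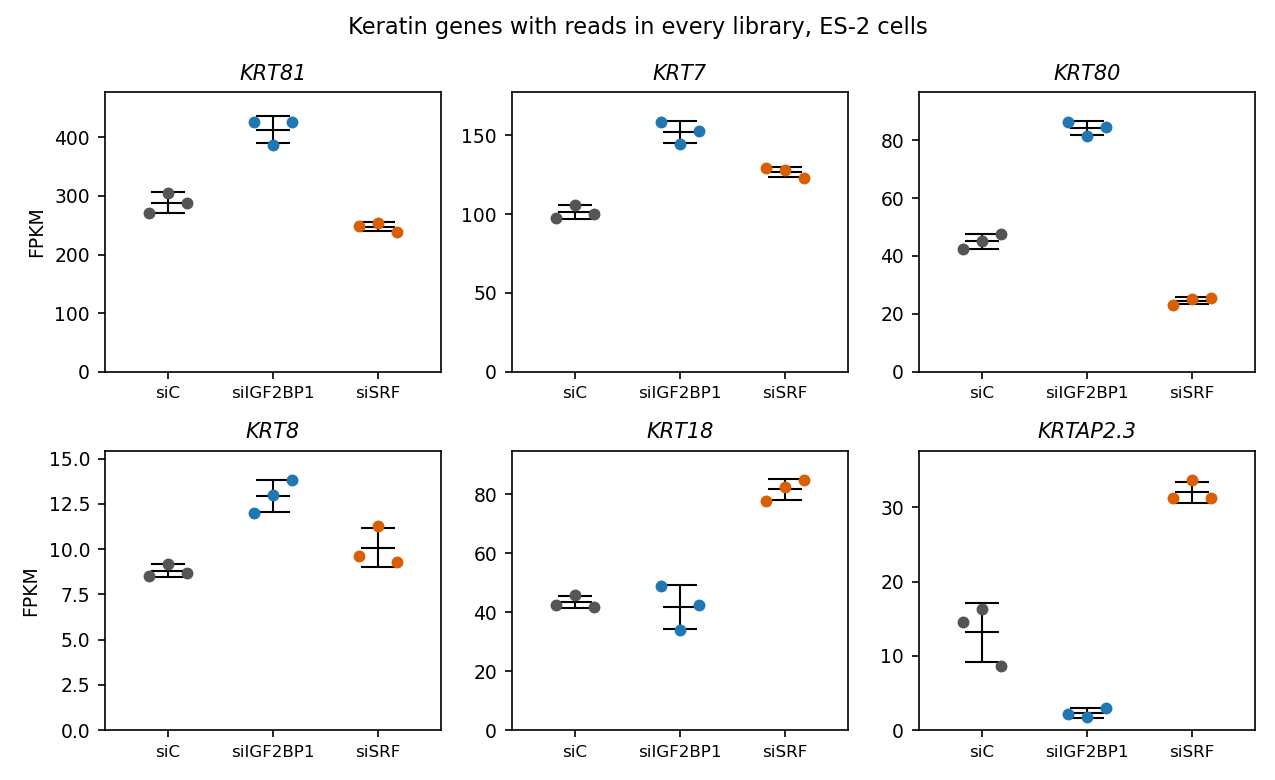
FPKM of the 6 members with reads in every library (y axes, each from 0), by group (x axes). Points are the 3 libraries of a group and bars the mean ± SD. KRT81, KRT7, KRT80 and KRT8 were highest in siIGF2BP1, KRT18 and KRTAP2.3 in siSRF, and KRTAP2.3 in siIGF2BP1 stayed at or below 2.97 FPKM.

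The plot of FPKM by library shows how the type II keratins were higher after IGF2BP1 depletion. KRT81 measured 270.2, 305.7 and 288.5 FPKM in siC, 426.1, 386.5 and 426.3 FPKM in siIGF2BP1 and 249, 253.9 and 239.1 FPKM in siSRF. All siIGF2BP1 libraries lay above and all siSRF libraries below those of siC. The log2 difference from siC was 0.52 with a 95% interval of 0.35 to 0.68 in siIGF2BP1, a 1.43-fold higher level, and -0.22 with an interval of -0.36 to -0.08 in siSRF, where it was not called. The latter was 0.00 after the libraries were corrected for trends with GC content and length. KRT81 shares 38.4% of its 50-base words with KRT86, so a part of its reads could belong to either gene.

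KRT7 measured 97.5, 105.9 and 100.2 FPKM in siC, 158.4, 144.5 and 152.8 FPKM in siIGF2BP1 and 128.9, 128.2 and 123.1 FPKM in siSRF. Its log2 differences were 0.59 (interval 0.46 to 0.72) in siIGF2BP1 and 0.33 (0.22 to 0.43) in siSRF, both called. The latter ranged from 0.29 to 0.56 over the alternative settings. The 3 groups did not overlap, and siSRF lay between the others. KRT8, the other type II keratin of simple epithelia, measured 8.54, 9.20 and 8.70 FPKM in siC, 12, 13 and 13.8 FPKM in siIGF2BP1 and 9.63, 11.3 and 9.28 FPKM in siSRF. Its log2 difference was 0.55 (0.37 to 0.72) in siIGF2BP1 and 0.19 (-0.03 to 0.40) in siSRF, where the groups did not overlap although the interval includes 0. Pseudogenes named for KRT8 held between 14.6% and 24.8% as many reads as KRT8 itself, and 39.2% of its 50-base words occur in other genes.

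KRT80 moved in opposite directions in the 2 knockdowns. It measured 42.4, 45.3 and 47.6 FPKM in siC, 86.3, 81.6 and 84.7 FPKM in siIGF2BP1 and 23.2, 25.1 and 25.4 FPKM in siSRF. The 3 groups stood far apart, with a 1.87-fold higher level in siIGF2BP1 (log2 0.90, interval 0.77 to 1.03) and a 1.83-fold lower level in siSRF (log2 -0.87, -1.02 to -0.73). Between the knockdowns the difference came to 3.42-fold. Only 0.4% of the 50-base words of KRT80 occur in other genes, the smallest share of the 9. Both calls also held whichever library was left out, but the call in siIGF2BP1 was lost in the fit with a block for replicate number.

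KRT18, the type I partner of KRT8, did not follow it. It measured 42.6, 45.7 and 41.8 FPKM in siC, 48.9, 34.1 and 42.4 FPKM in siIGF2BP1 and 77.9, 82.4 and 84.7 FPKM in siSRF. The siIGF2BP1 libraries spread around those of siC (log2 -0.07, interval -0.38 to 0.24, and 0.07 without siIGF2BP1 library 2), whereas all siSRF libraries were 1.88-fold higher on average (log2 0.91, 0.78 to 1.04). The ratio of KRT18 to KRT8 in FPKM was 4.99, 4.97 and 4.8 in siC, 4.08, 2.62 and 3.08 in siIGF2BP1 and 8.09, 7.30 and 9.12 in siSRF, without overlap of the groups. KRT8 and KRT18 lie head to head on opposite strands, and their annotated transcripts share 525 exonic bases. Of these, 375 lie in the main transcript of KRT18 and 0 in that of KRT8. The library kit keeps the strand, but the setting used in counting is not given in the sources used here, so reads from this stretch could count for either gene. Pseudogenes of KRT18 held between 4.86% and 9.25% as many reads as KRT18. Of its 50-base words, 52.8% occur in other genes, the largest share of the 9.

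KRTAP2.3 encodes a hair keratin-associated protein and had the largest differences among the 6 members. It was counted with 84, 97 and 55 reads in siC, 15, 11 and 22 reads in siIGF2BP1 and 195, 268 and 201 reads in siSRF. On the FPKM scale these were 14.5, 16.3 and 8.69 in siC, 2.24, 1.72 and 2.97 in siIGF2BP1 and 31.2, 33.6 and 31.2 in siSRF. The groups did not overlap, and siC library 3 lay below the other siC libraries. The level was 5.45-fold lower in siIGF2BP1 (log2 -2.45, interval -3.14 to -1.75) and 2.50-fold higher in siSRF (log2 1.32, 0.77 to 1.87), which makes a 13.6-fold difference between the knockdowns. Without 1 library the log2 difference lay between -2.72 and -2.26 in siIGF2BP1 and between 1.05 and 1.5 in siSRF, and 1 of 6 such fits kept the call in each contrast. The call in siSRF was also lost without the filter on low values and with median-ratio rescaling, and both calls were lost with the block for replicate number. Of its 50-base words, 39.7% occur in other genes.

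**Figure D2:**
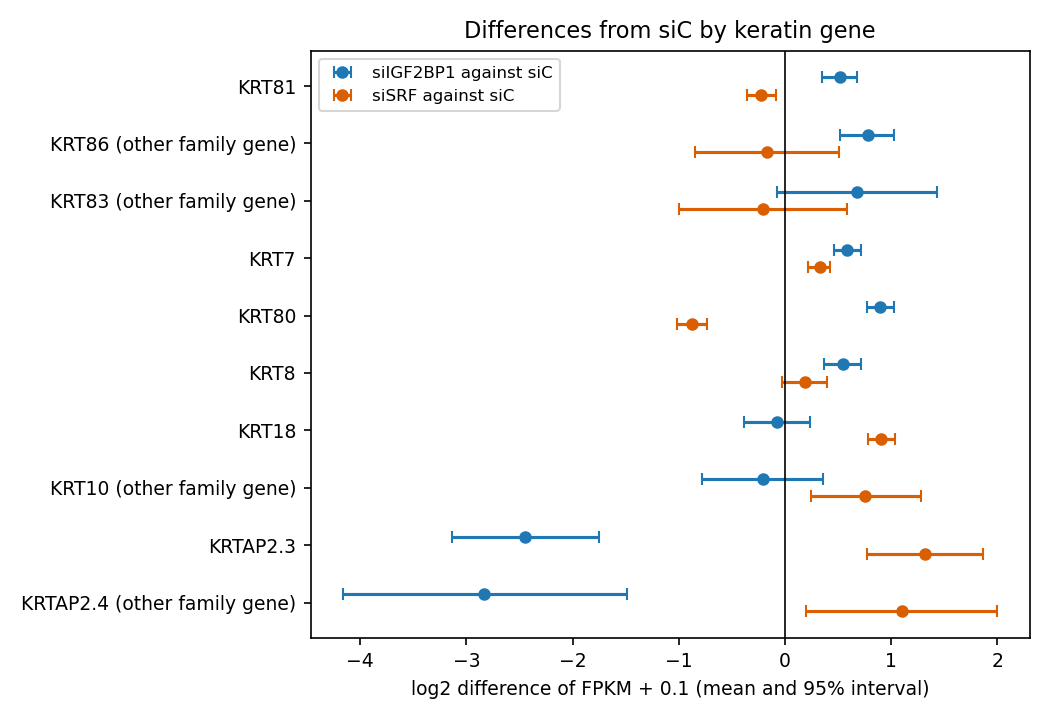
Log2 difference from siC on the log2(FPKM + 0.1) scale (x axis) for the 6 tested members and 4 further keratin and KRTAP genes (y axis), with 95% intervals. KRT80, KRTAP2.3, KRTAP2.4 (2 reads in all of siIGF2BP1) and KRT81 (0.00 in siSRF after the GC and length correction) lie on opposite sides of 0 in siIGF2BP1 and siSRF, with intervals that exclude 0.

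In siIGF2BP1, 4 of the 6 tested members passed an adjusted p of at most 0.01 as higher (KRT7, KRT8, KRT80, KRT81) and 1 as lower (KRTAP2.3), where 3.55% and 3.57% of all 22292 genes tested passed as higher and lower. In siSRF, 3 passed as higher (KRT7, KRT18, KRTAP2.3) and 1 as lower (KRT80), beside 6.85% and 5.34% of 21857 genes. Between siIGF2BP1 and siSRF, 3 were higher in siIGF2BP1 (KRT7, KRT80, KRT81) and 2 lower (KRT18, KRTAP2.3), beside 8.82% and 11.2% of 22311 genes. Since the genes were chosen with these contrasts known, nothing is read from these counts. Leaving out 1 library left between 1 and 2 of the 5 calls in siIGF2BP1 and between 2 and 3 of the 4 in siSRF. KRT7 kept its call in 2 of 6 such fits in siIGF2BP1 and in 1 of 6 in siSRF. KRT8 and KRT81 kept theirs in 0 of 6 in siIGF2BP1, and KRT18 kept its call in siSRF in 6 of 6. The contrasts of both knockdowns share the siC libraries, so they are not independent of each other.

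The classes were summed over the whole family, which the members dominate. The sums and their ratios depend on the gene lengths in the deposited FPKM. They were not corrected for trends with GC content and length, on which the siSRF difference of KRT81 depended. Type II keratins summed to 429.7, 475.3 and 453.2 FPKM in siC, then 697.5, 641.3 and 695.2 FPKM in siIGF2BP1, and 420.0, 429 and 402.6 FPKM in siSRF. Type I keratins summed to 45.0, 49.3 and 44.6 FPKM in siC, 51.9, 35.9 and 44.9 FPKM in siIGF2BP1 and 84.0, 87.1 and 88.7 FPKM in siSRF. Type II RNA was thus in excess in all 9 libraries on this scale, by 9.78 ± 0.334 times in siC, 15.6 ± 2.20 times in siIGF2BP1 and 4.82 ± 0.248 times in siSRF. The 3 groups of ratios did not overlap, with the type II sum 1.5 times as high as in siC in siIGF2BP1 and the type I sum 1.87 times as high in siSRF. The KRTAP sum was 15.2 ± 4.45 FPKM in siC, lower at 2.76 ± 0.454 FPKM in siIGF2BP1 and higher at 36.4 ± 2.06 FPKM in siSRF, without overlap. VIM, the mesenchymal intermediate filament gene, exceeded the summed keratins by 2.12 ± 0.124 times in siC, 1.22 ± 0.0188 times in siIGF2BP1 and 1.69 ± 0.0297 times in siSRF.

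**Figure D3:**
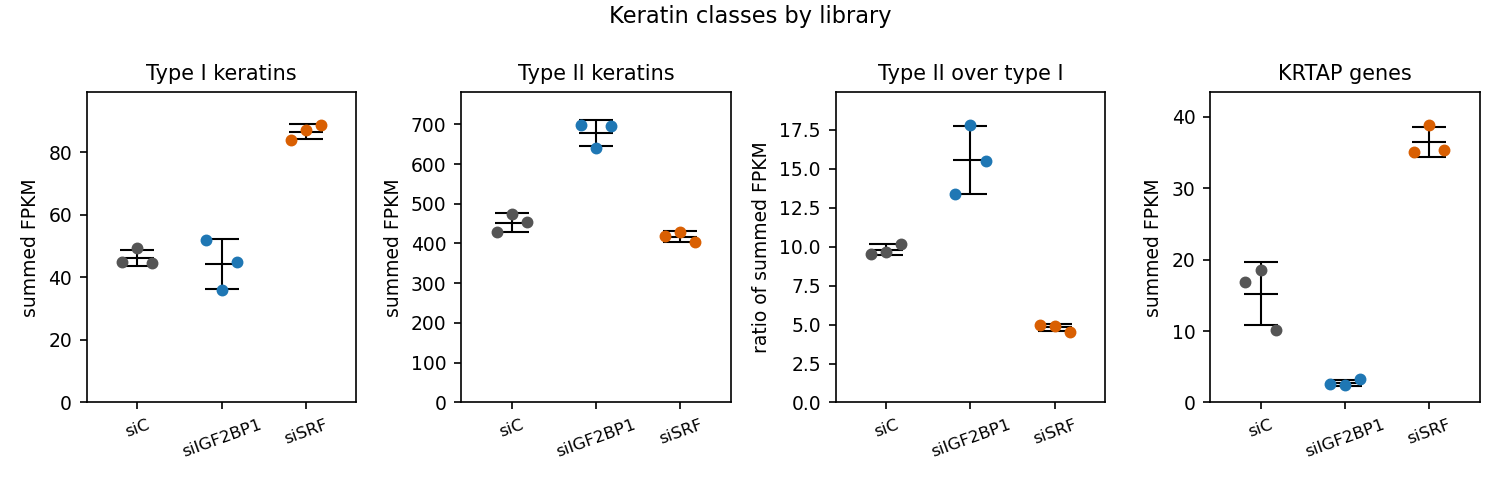
Summed FPKM of type I keratins, type II keratins and KRTAP genes, and the ratio of type II to type I (y axes, from 0), by group (x axes). Points are libraries and bars the mean ± SD (n = 3). The ratio was between 13.4 and 17.8 in siIGF2BP1 and between 4.54 and 5.00 in siSRF, on either side of siC.

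Among the 140 other protein-coding keratin and KRTAP genes, 24 had a read and 8 were tested in siIGF2BP1. KRT86, a hair keratin whose annotated span contains KRT81 on the opposite strand, was the gene called there, beside 3.55% of all genes as higher. It rose from 8.98, 7.44 and 7.39 FPKM in siC to 12.6, 13.3 and 15 FPKM in siIGF2BP1 (log2 0.78, SE 0.104, adjusted p = 0.00513), and was at 8.20, 9.53 and 4.42 FPKM in siSRF (log2 -0.17, adjusted p = 0.725). The call was lost whichever of the 6 libraries was left out, with log2 differences between 0.71 and 0.87, and in the fit of all 9 libraries. KRT81 exceeded KRT86 by 36.7 ± 5.85 times in siC, 30.4 ± 2.88 times in siIGF2BP1 and 37.0 ± 14.9 times in siSRF. KRT86 shares 32.8% of its 50-base words with KRT81, so its reads and those of KRT81 could be mixed and its change may not be separate from that of KRT81. KRT83, a further hair keratin, was at 1.18 ± 0.445, 1.86 ± 0.191 and 0.959 ± 0.133 FPKM in siC, siIGF2BP1 and siSRF, with adjusted p = 0.205 in siIGF2BP1 and 0.709 in siSRF.

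In siSRF, 9 of these genes were tested and 0 were called by limma-trend, beside 6.85% and 5.34% of all genes as higher and lower. With so few genes tested, nothing is read from this count. Of the 9, 3 had an unadjusted p under 0.05 and 2 were called by limma-voom on the recovered reads. KRT10, a type I keratin of the differentiating epidermis, was at 1.98, 2.95 and 2.32 FPKM in siC, 2.74, 1.66 and 1.87 FPKM in siIGF2BP1 and 5.23, 3.99 and 3.35 FPKM in siSRF. Its siSRF libraries all lay above those of siC (log2 0.76, SE 0.212, adjusted p = 0.0455).

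KRTAP2.4, whose upstream stretch is shown above beside that of KRTAP2.3, had 9, 8 and 4 reads in siC, 0, 1 and 1 reads in siIGF2BP1 and 11, 22 and 20 reads in siSRF. The groups did not overlap in either contrast, and their order was that of KRTAP2.3. Summed over libraries, the level in siIGF2BP1 was 0.0838 of that in siC, with an exact counting interval of 0.00953 to 0.343. The level in siSRF was 2.20 times that in siC (1.31 to 3.85). These intervals hold counting error only and leave out the spread between libraries. The fits gave adjusted p = 0.0185 and 0.0832 against siC and adjusted p = 0.00139 between the knockdowns. KRTAP2.3 exceeded KRTAP2.4 by 10.2 ± 1.95 times in siC and 11.6 ± 3.46 times in siSRF, in FPKM. Since 45.6% of the 50-base words of KRTAP2.4 occur in KRTAP2.3, the reads of both genes could be mixed. The change of KRTAP2.4 may therefore not be separate from that of KRTAP2.3, which was known when the genes were chosen. KRTAP2.3 and KRTAP2.4 together came to 14.5 ± 4.50, 2.42 ± 0.631 and 34.9 ± 1.76 FPKM in siC, siIGF2BP1 and siSRF.

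Processed pseudogenes named for KRT8 and KRT18 are copies without introns and can draw reads from them. KRT8P33, KRT8P12, KRT8P39 and KRT8P46 had group means between 0.537 and 2.29 FPKM, and KRT18P28, KRT18P31, KRT18P17 and KRT18P38 between 0.515 and 2.01 FPKM. KRT18P38 measured 0.898, 0.876 and 2.01 FPKM in siC, siIGF2BP1 and siSRF (adjusted p = 0.0312 in siSRF), and KRT18P28 at 0.515, 0.735 and 1.70 FPKM (adjusted p = 0.0329). Both showed non-overlapping siC and siSRF libraries in the direction of KRT18, and neither passed the threshold.

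The genes whose profiles over the 9 libraries were nearest to a member were sought among 10374 protein-coding genes, by the Euclidean distance of log2(FPKM + 0.1) taken relative to the siC mean. For KRT7 they were LTBP2, PPT1 and ABI2, at distances of 0.12, 0.15 and 0.18. For KRT80 they were SERPINB1, AIM1 and MXD4, at 0.25, 0.29 and 0.30. SERPINB1, for example, had log2 differences of 0.90 in siIGF2BP1 and -0.80 in siSRF, beside 0.90 and -0.87 for KRT80. For KRTAP2.3 the nearest were TAGLN3 at 1.64, KRTAP2.4 at 1.65 and BCL2A1 at 1.68. These distances were larger than those of KRT7 and KRT80, and KRTAP2.4, with 45.6% of its 50-base words found in KRTAP2.3, was the second nearest of all candidates.

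Intermediate filament genes other than keratins were called as lower in siSRF for 4 of the 9 tested, out of 15 listed, beside 5.34% of all genes. In siIGF2BP1 their median log2 difference was -0.10 beside 0.02 for all genes, and NEFL, a neurofilament gene, was the 1 gene called, as higher (beside 3.55% of all genes; 13.6 to 18.9 FPKM, log2 0.48, adjusted p = 0.00701). In siSRF the median was -0.63 beside 0.01 for all genes, all 9 values were below 0, and 4 passed as lower. These were VIM (1055.5 to 853.5 FPKM, log2 -0.31, adjusted p = 0.00910), the nuclear lamins LMNA (log2 -0.49, adjusted p = 0.00484) and LMNB1 (log2 -0.72, adjusted p = 0.00424), and SYNM, which encodes synemin (log2 -1.07, adjusted p = 0.00425). VIM was also at 882.6 FPKM in siIGF2BP1 (log2 -0.26, adjusted p = 0.0400).

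Of 20 genes for desmosomes and proteins that tie keratin filaments to junctions, 8 were tested in each contrast. PLEC, which encodes the linker plectin, was the most abundant at 81.8 FPKM in siC, and fell to 42.2 FPKM in siSRF (log2 -0.95, SE 0.0912, adjusted p = 0.00116). In siIGF2BP1 it was at 99.9 FPKM (log2 0.29, adjusted p = 0.0377). PKP4, a plakophilin, rose in siSRF (12.6 to 15.7 FPKM, log2 0.31, adjusted p = 0.00471), and MACF1, a linker of actin and microtubules, fell in siIGF2BP1 (31.1 to 25.8 FPKM, log2 -0.27, adjusted p = 0.00705). The medians were 0.07 in siIGF2BP1 and -0.12 in siSRF, beside 0.02 and 0.01 for all genes. In siIGF2BP1, 0 were called as higher and 1 as lower, beside 3.55% and 3.57% of all genes. In siSRF, 1 was called as higher and 1 as lower, beside 6.85% and 5.34%. With 1 library left out, PKP4 and MACF1 kept these calls in 0 of 6 fits and PLEC in 4 of 6. PKP1, PKP2, DSC1 and DSG1 had no read.

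Of 22 transcription factors known as regulators of keratin genes, 12 were tested in each contrast. FOSL1, an AP-1 subunit and the most abundant of them, fell from 158.2 FPKM in siC to 112.3 FPKM in siIGF2BP1 (log2 -0.50, SE 0.0750, adjusted p = 0.00774). CEBPB fell there as well, from 17.9 to 11.5 FPKM (log2 -0.64, adjusted p = 0.00219). In siSRF, JUNB, a further AP-1 subunit, rose from 9.30 to 14.2 FPKM (log2 0.61, adjusted p = 0.00177) and TP63, the epithelial factor p63, from 5.45 to 8.45 FPKM (log2 0.62, adjusted p = 0.00439), while SP1 fell from 17.2 to 12.6 FPKM (log2 -0.44, adjusted p = 0.00351). The medians were -0.11 and -0.02, beside 0.02 and 0.01 for all genes. In siIGF2BP1, 0 were called as higher and 2 as lower, beside 3.55% and 3.57% of all genes. In siSRF, 2 were called as higher and 1 as lower, beside 6.85% and 5.34%. With 1 library left out, FOSL1 and TP63 kept these calls in 0 of 6 fits. CEBPB and SP1 kept theirs in 1 of 6, and JUNB in 3 of 6. None of these genes was tested for a part in the keratin levels.

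**Figure D4:**
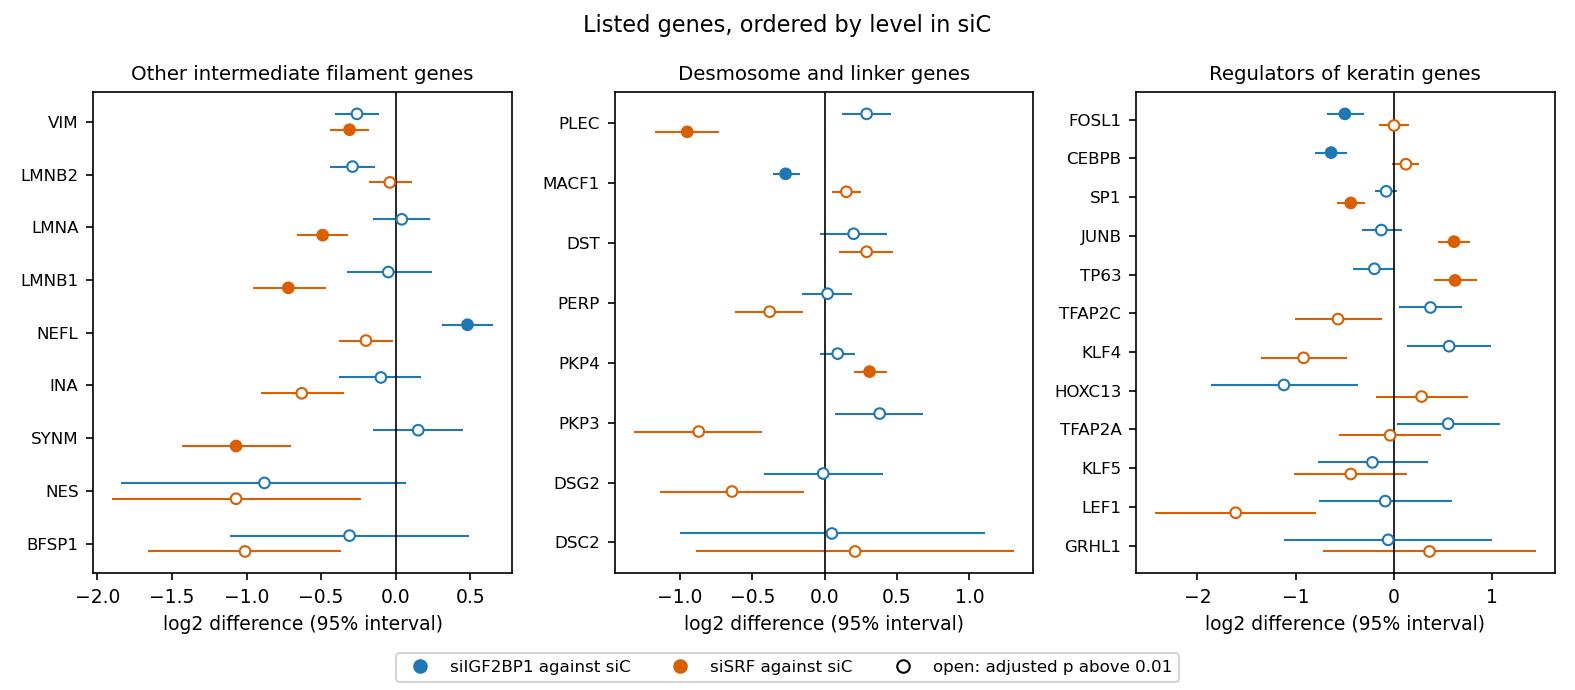
Log2 difference from siC (x axes, with 95% intervals) of the tested genes of 3 lists, ordered from top to bottom by level in siC. Filled points passed an adjusted p of at most 0.01. All 9 other intermediate filament genes lie below 0 in siSRF, and PLEC lies at 0.29 in siIGF2BP1 and -0.95 in siSRF.

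Of 12 mesenchymal markers, 11 were tested. In siIGF2BP1, 4 were called as higher and 1 as lower, beside 3.55% and 3.57% of all genes, and in siSRF 5 were called as lower, beside 5.34%. SPARC, a matrix protein gene, rose from 74.5 to 240.9 FPKM in siIGF2BP1 and fell to 46.8 FPKM in siSRF (log2 1.69 and -0.67, adjusted p = 0.000154 and 0.00157). COL1A1 (log2 2.54, adjusted p = 0.000854), SNAI2 (log2 1.35, adjusted p = 0.00665) and the N-cadherin gene CDH2 (log2 0.66, adjusted p = 0.00282) were higher in siIGF2BP1. FN1, the fibronectin gene, fell in both knockdowns (log2 -0.80 and -1.36, adjusted p = 0.00267 and 0.000329). TWIST1 and TWIST2 (log2 -0.67 each, adjusted p = 0.00629 and 0.00206) and VIM were lower in siSRF. The endothelial marker list held CDH5, at 9.38 FPKM in siC and 15.2 FPKM in siIGF2BP1 (log2 0.70, adjusted p = 0.00873), while PECAM1 was at 0.313 FPKM and VWF at 0.0139 FPKM in siC. Of the epithelial markers, 3 were tested and 0 were called by limma-trend or limma-voom in either contrast, with 0 at an unadjusted p under 0.05, all at or below 0.581 FPKM. EPCAM, an epithelial marker named after its values were seen and too low to be tested, had no read in siC, 5, 4 and 1 reads in siIGF2BP1 and 0, 0 and 1 reads in siSRF. The part of these cell type markers in the keratin values was not tested. The intermediate filament, desmosome and linker, regulator, epithelial and mesenchymal lists together held 42 tested genes in each contrast. The ovarian carcinoma, leukocyte and endothelial lists, and so CDH5, were not included. In siIGF2BP1, 5 of the 42 were called as higher and 4 as lower, beside 3.55% and 3.57% of all genes. In siSRF, 3 were called as higher and 10 as lower, beside 6.85% and 5.34%. Leaving out 1 library left between 1 and 3 of these 9 calls in siIGF2BP1 and between 2 and 5 of the 13 in siSRF.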

How the data were processed

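Total RNA-seq of ES-2 cells was measured in 9 libraries, 3 each for siC, siIGF2BP1 and siSRF, grouped by the labels. Per the study's methods and the submitters' processing notes, the authors clipped reads with Cutadapt 1.14, aligned them with HISAT2 2.1.0 to GRCh38, used SAMtools 1.5, counted them on Ensembl genes with featureCounts 1.5.3 and normalized by TMM in edgeR 3.18.1. The authors deposited FPKM values per gene and library in 2 tables with identical siC values, beside gene length and columns of fold changes and p-values, which were not used. Whole reads were recovered for 100% of values (tolerance 0.01 read), with a median of 7377934 per library.

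Conditions were compared by limma 3.58.1 (lmFit, then eBayes, trend set) under R 4.3.3. Values entered as log2(FPKM + 0.1), which understates changes of low genes, and genes averaging under 0.1 FPKM in the 6 libraries of a contrast were left out, with Benjamini-Hochberg adjustment over all genes kept and a call at 0.01. The fit was tested on simulated data. Members and gene lists were chosen with earlier results of these data known. The value of 1 listed marker gene is not reported here. Beyond the members, the genes named were other family genes called or at a mean of at least 1 FPKM in a group, pseudogenes of members at that level, list genes called or most abundant in siC, and the 3 nearest profiles. Positions are from GENCODE on GRCh38. Alternatives were a pseudocount of 1, no filter or 1 FPKM, median-ratio rescaling, limma-voom on recovered reads, all 9 libraries, a replicate block, a threshold of 0.05 and leaving out each library. Chosen after seeing the data were GC and length trends taken out and a minimum mean of 10 reads.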

Additional observations from a re-analysis of the deposited data

How the results depend on the processing

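Member calls were 5 in siIGF2BP1 and 4 in siSRF against siC and 5 between the knockdowns, and leaving out 1 library gave 1 to 2, 2 to 3 and 3 to 5. With the replicate block they were 0, 2 and 3. Correlations of same-numbered libraries lay between -0.0438 and 0.0186, so no pairing by replicate number was visible. The labels do not say whether the libraries were paired, and these correlations cannot settle it. For other keratin and KRTAP genes the 1 call in siIGF2BP1 became 0 with the block or whichever library was left out and 2 with limma-voom or at an adjusted p of 0.05, and the 0 calls in siSRF became 2 with limma-voom and 1 at 0.05, and stayed at 0 whichever library was left out. The intermediate filament, desmosome and linker, regulator, epithelial and mesenchymal lists were counted together. Their 9 calls in siIGF2BP1 became 1 with the block, 15 with limma-voom and 1 to 3 without a library. Their 13 calls in siSRF became 2 with the block, 26 with limma-voom, 23 at 0.05 and 2 to 5 without a library. Signs changed for KRT18 in siIGF2BP1 (0.01 with GC and length trends taken out, and between -0.19 and 0.07 without 1 library, the latter without siIGF2BP1 library 2), for KRT81 (0.00), KRT86 (0.05) and KRT83 (0.01) in siSRF with those trends taken out, and for KRT86 in siSRF without 1 library (between -0.39 and 0.16, the latter without siSRF library 3). The cause was not tested. In the other alternatives these counts stayed within 1.5 times, though not always for the same genes. With all 9 libraries in 1 fit, KRT86 lost its call in siIGF2BP1 (adjusted p = 0.0633, from 3.04e-06 to 0.0633 over all alternatives) and KRTAP2.4 was called as lower (adjusted p = 0.00404, from 0.00133 to 0.0777). Apart from the cases above, the sign of each member's log2 difference did not change. Over all alternatives, the difference in siSRF ranged from 0.29 to 0.56 for KRT7 and from 0.1 to 0.37 for KRT8. It ranged from 0.88 to 1.06 for KRT18, from -0.92 to -0.7 for KRT80 and from 1.05 to 1.5 for KRTAP2.3. KRT19, KRT34 and KRTAP1.5 were too low for any statement on change at this depth.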
